A study of Mus musculus with 9 samples.

Results

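The proteasome is the large protease complex that degrades proteins tagged with ubiquitin. The genes described here are its subunits, activators, inhibitor and assembly chaperones, taken as every protein-coding gene whose symbol began with Psm, a letter from a to g and a digit. In the deposited expression table, 50 of 22046 protein-coding genes (54532 genes of all kinds) met that rule. The 50 divide into 7 subunits of the alpha ring and 7 constitutive subunits of the beta ring of the 20S core, 6 ATPases and 11 other subunits of the 19S regulatory particle, 3 inducible catalytic subunits, 4 genes of the PA28 activator, 7 assembly chaperones, 2 further regulators (the activator PA200 and the inhibitor PI31) and 2 tissue-restricted 20S subunits. The last gene, Psmc3ip, matched by name only: it encodes a partner of the meiotic recombinases. Another 4 genes with such symbols were not protein coding and were left out. A filter on low values kept 49 of the 50 among the 11707 genes tested. The exception, Psmb11, the thymus-restricted catalytic subunit, had 1 read in 1 control library and none in the other 8 libraries.

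The 20S core is a barrel of stacked rings, whose outer alpha rings gate entry and whose inner beta rings hold the proteolytic sites of Psmb5 (chymotrypsin-like), Psmb6 (caspase-like) and Psmb7 (trypsin-like). The 19S particle binds ubiquitinated substrates and unfolds them with a ring of ATPases, and 20S capped by 19S is the 26S proteasome. In immune cells and under interferon, Psmb8, Psmb9 and Psmb10 can take the places of Psmb5, Psmb6 and Psmb7 in newly built particles. These are then called immunoproteasomes. The PA28 built from Psme1 and Psme2 is an alternative cap. Immunoproteasomes and this cap are both known for shaping the peptides presented on MHC class I. The transcription factor Nfe2l1 is known to raise the standard subunit genes together when proteasome activity is limiting, and macrophages carry both kinds of particle.

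The cells were RAW 264.7, an established mouse macrophage line labelled as wild type and as derived from ascites, so all libraries come from 1 line. Of the 3 groups, LPS + H-CDs received 400 µg/ml H-CDs together with 1 µg/ml lipopolysaccharide (LPS, a bacterial cell wall component that activates macrophages), the LPS group received 1 µg/ml LPS alone, and the control group was untreated. The design text gives 6 h for the exposure to LPS, with or without H-CDs; the labels do not spell H-CDs out, and the series title concerns a nanozyme from a fruit with superoxide dismutase activity. Each group had 3 RNA-seq libraries, and no label says that these came from separate cultures, so the p-values speak only of the spread among the libraries, which may be technical. No group received H-CDs without LPS.

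Expression is in FPKM (fragments per kilobase of gene, scaled to the library) as deposited. Libraries held 14377161 to 16069968 reads and had 11020 to 11178 genes at 1 FPKM or more. Of 8 macrophage markers, 7 reached 1 FPKM (Mrc1 did not), and no marker of T cells, B cells, fibroblasts, epithelium or dendritic cells did; of 4 neutrophil markers, S100a8 reached 1.25 FPKM in 1 LPS library. Replicate 1 of LPS + H-CDs stood apart: mitochondrially encoded mRNA took 0.490% of its reads, against 1.62% and 1.64% in the other 2 libraries of that group, 1.45% to 1.64% in LPS and 1.49% to 1.99% in control. In the same library the macrophage marker Cd68 was at 133 FPKM, against 274 and 296 FPKM in its group, 320 to 322 FPKM in LPS and 328 to 390 FPKM in control. For most counts and calls that involve LPS + H-CDs and changed without this library, the change is given beside them or in a later paragraph. Whether groups overlapped is given with all libraries only. Genes were tested with limma on log2(FPKM + 1) with Benjamini-Hochberg adjustment over all 11707 genes, and a gene was called changed at an adjusted p under 0.05. A log2 fold change is a difference on that scale, given with its standard error (SE), which understates the change of low genes; a plain fold is a ratio of mean FPKM. Means carry the SD over the 3 libraries of a group.

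Sequences of 6 promoters are shown as examples from several classes, whether or not the gene passed a test below. They are Psmd5 and Psma6, which moved apart from their classes; Psmb5 and Psmb8, a constitutive subunit and its inducible counterpart; Psme1, of PA28; and Psmc6, a 19S ATPase. Each runs from 250 bases before to 50 bases after a RefSeq start on GRCm38.p6, 5′ to 3′ along the gene. Capitals mark a match, on either strand, to TGACNNNGC (the antioxidant response element core, ARE), GAAA-NN-GAAA (the interferon-stimulated response element, ISRE) or TTCNNNGAA (the interferon-gamma activated site, GAS, which reads the same on both strands).
Psmd5, chr2:34870913-34871212, minus strand: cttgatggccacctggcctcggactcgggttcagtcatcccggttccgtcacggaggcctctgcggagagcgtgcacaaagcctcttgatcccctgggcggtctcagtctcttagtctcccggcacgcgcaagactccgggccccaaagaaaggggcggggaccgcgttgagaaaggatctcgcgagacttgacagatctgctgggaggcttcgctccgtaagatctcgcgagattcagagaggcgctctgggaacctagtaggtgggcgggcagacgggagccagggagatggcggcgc
Psma6, chr12:55383972-55384271, plus strand: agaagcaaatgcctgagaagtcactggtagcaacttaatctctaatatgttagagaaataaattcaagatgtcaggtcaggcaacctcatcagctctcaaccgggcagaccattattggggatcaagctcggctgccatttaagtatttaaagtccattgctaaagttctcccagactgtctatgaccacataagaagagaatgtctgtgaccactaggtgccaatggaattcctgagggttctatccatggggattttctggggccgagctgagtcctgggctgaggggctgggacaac
Psmb5, chr14:54617946-54618245, minus strand: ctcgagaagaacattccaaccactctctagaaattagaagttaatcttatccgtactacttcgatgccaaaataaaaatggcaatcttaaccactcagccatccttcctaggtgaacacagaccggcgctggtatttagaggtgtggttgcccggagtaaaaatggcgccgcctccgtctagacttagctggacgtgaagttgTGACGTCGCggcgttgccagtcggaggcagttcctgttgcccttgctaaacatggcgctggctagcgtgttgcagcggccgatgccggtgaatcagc
Psmb8, chr17:34197945-34198244, plus strand: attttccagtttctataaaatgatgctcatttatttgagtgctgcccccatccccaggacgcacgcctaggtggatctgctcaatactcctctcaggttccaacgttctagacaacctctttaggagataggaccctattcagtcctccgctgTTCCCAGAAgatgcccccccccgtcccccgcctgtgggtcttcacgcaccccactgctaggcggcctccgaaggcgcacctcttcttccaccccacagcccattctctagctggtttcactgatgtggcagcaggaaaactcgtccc
Psme1, chr14:55578244-55578543, plus strand: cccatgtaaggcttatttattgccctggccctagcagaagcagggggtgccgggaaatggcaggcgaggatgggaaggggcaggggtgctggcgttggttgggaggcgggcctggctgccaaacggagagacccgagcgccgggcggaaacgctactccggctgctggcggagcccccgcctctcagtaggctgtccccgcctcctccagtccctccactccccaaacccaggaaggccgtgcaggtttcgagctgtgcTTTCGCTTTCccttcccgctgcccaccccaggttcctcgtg
Psmc6, chr14:45329574-45329873, plus strand: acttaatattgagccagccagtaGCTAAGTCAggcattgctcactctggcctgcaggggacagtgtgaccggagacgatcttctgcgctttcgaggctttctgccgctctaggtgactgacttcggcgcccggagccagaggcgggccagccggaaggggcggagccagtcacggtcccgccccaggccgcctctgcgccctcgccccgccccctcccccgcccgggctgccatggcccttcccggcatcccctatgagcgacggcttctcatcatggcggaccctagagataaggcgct
The Psmb5 promoter held an ARE whose first base lay 47 bases before the start, written here as position -47, and the Psmc6 promoter one at -227 on the opposite strand. The Psmb8 promoter held a GAS at -97, and the Psme1 promoter an ISRE on the opposite strand at position 9 past the start. The windows of Psmd5 and Psma6 held none of the 3 motifs. RefSeq starts can differ from the deposited gene starts: the windows above belong to starts 4006 bases inside the gene for Psmd5, 474 for Psmb8 and 371 for Psme1. Psma6 has a second RefSeq start 14603 bases further in, whose window held none of the motifs either.

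Across the set, RefSeq promoters were found for 42 of 50 genes (45 promoters); none was found for Psma8, Psmb1, Psmb2, Psmb7, Psmc3, Psmd3, Psmd7 and Psmg2. An ARE was in 6 of the 45, or 13.3%, against 12.4% of all 32851 promoters of that length, in Psmb5, Psmb6, Psmc6, Psmd12, Psmd9 and Psme4. An ISRE was in 5 of the 45, or 11.1%, against 3.44% of all promoters, in Psmb3, Psmd4, Psmd9, Psme1 and Psmg4. A GAS was in 3 of the 45, or 6.67%, against 8.30% of all promoters, in Psmb8, Psmd2 and Psmg1. A match describes letters and is neither a binding site nor a cause, and the lack of one says only that these letters are not in this window.

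The share of all expression taken by the 31 standard subunits of the 26S proteasome was highest in LPS + H-CDs and lowest in control. Their summed FPKM was 0.971%, 0.905% and 0.898% of the library total in LPS + H-CDs, 0.772%, 0.790% and 0.813% in LPS and 0.697%, 0.724% and 0.724% in control, and the 3 groups did not overlap. The PA28 genes were ordered otherwise, at 0.0686% ± 0.00205 in LPS + H-CDs, 0.0833% ± 0.00340 in LPS and 0.0660% ± 0.00118 in control. The 3 inducible subunits together took 0.0136% ± 0.00178 in LPS + H-CDs, 0.0169% ± 0.00123 in LPS and 0.0186% ± 0.00192 in control, the reverse order of the standard subunits, with overlap between neighbouring groups. The assembly chaperones took 0.0436% ± 0.00123 in LPS + H-CDs, 0.0396% ± 0.00316 in LPS and 0.0509% ± 0.00119 in control. The standard classes differed between LPS and control. In LPS the alpha ring took 0.248%, against 0.195% in control, and the other 19S subunits 0.237% against 0.208%. These classes hold Psma6 and Psmd8, which rose 2.70-fold and 2.42-fold as deposited. The 19S ATPases took 0.144% in both groups, and the constitutive beta ring 0.163% in LPS against 0.168% in control. A share does not depend on how the authors scaled one library against another. In bulk samples such as these, fewer cells of a type and less RNA per cell cannot be told apart.

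**Figure D1:**
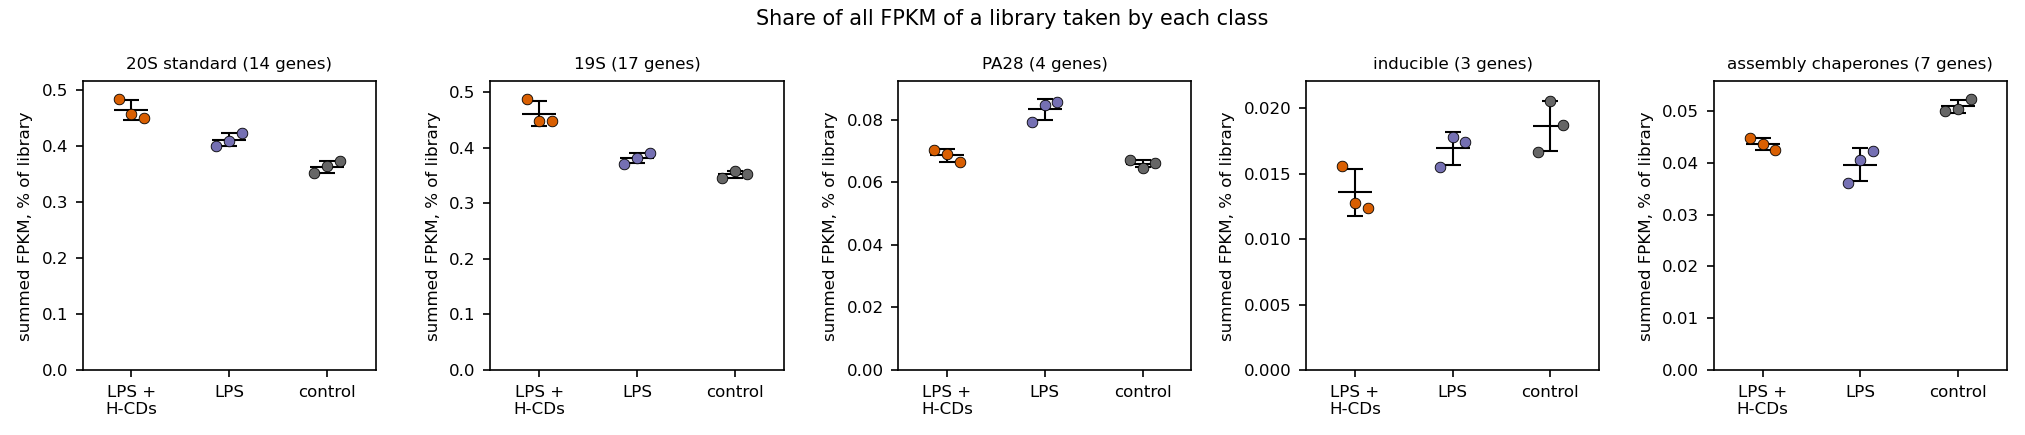
Summed FPKM of the 14 standard 20S subunits, the 17 subunits of the 19S particle, the 4 PA28 genes, the 3 inducible subunits and the 7 chaperones, as a percent of all FPKM in each library. Points are libraries and bars with whiskers are the mean ± SD of 3 libraries per group. The 20S and 19S shares are highest in LPS + H-CDs, the PA28 share is highest in LPS, and the mean inducible share is lowest in LPS + H-CDs, with overlap between neighbouring groups.

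Set against LPS alone, 11 of the 49 tested genes were higher and 4 lower in LPS + H-CDs. The higher ones were the 20S subunits Psma1, Psma2, Psma5 and Psmb4, the ATPases Psmc2, Psmc3 and Psmc6, the 19S subunits Psmd1, Psmd4 and Psmd11, and the chaperone Psmd5. The lower ones were the inducible subunits Psmb9 and Psmb10, the PA28 gene Psme1 and the alpha subunit Psma6. Of all tested genes 6.54% were higher and 9.05% lower in this comparison. The median log2 fold change was 0.16 over the 49 genes and -0.01 over all genes tested. Groups that did not overlap were found for 22 genes on the higher side and 7 on the lower, where 16.4% and 20.4% of all genes did the same. Without replicate 1 of LPS + H-CDs, 7 genes were higher and 3 lower: the calls of Psma2, Psmb4, Psmd1, Psmd4 and Psmb9 were lost.

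Among the 31 standard 26S subunits, 10 rose and 1 fell in LPS + H-CDs relative to LPS, 28 values were above 0, and the median log2 fold change was 0.22. Of these rises, those of Psma2, Psmb4, Psmd1 and Psmd4 were lost without replicate 1 of LPS + H-CDs. In LPS relative to control, 25 of the 31 rose and the other 6 did not pass, with a median of 0.37, on the authors' scale. Over all 49 genes 31 rose and 4 fell in LPS relative to control, against 28.8% and 26.8% of all genes tested, and the medians were 0.34 for the 49 and 0.03 for all genes. The groups did not overlap for 30 genes on the higher and 4 on the lower side, against 33.2% and 30.7% of all genes. That comparison depends on scaling: the median of all genes in LPS over control was -0.30 after rescaling every library to the same sum over genes, that is, to TPM, and -0.22 after scaling to total reads, where 8 of the 31 subunits rose and 5 fell with TPM, and 9 rose and 2 fell with total reads. Relative to the median of all genes, 30 of the 31 lay above it in LPS over control as deposited, and their median stood 0.35 above it as deposited, 0.33 with TPM and 0.30 with total reads. In LPS + H-CDs over LPS, 28 of the 31 lay above the median of all genes, by a median of 0.23, 0.23 and 0.24 on the same 3 scales. Both comparisons use the LPS libraries, so a chance deviation of those libraries enters both with opposite sign.

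**Figure D2:**
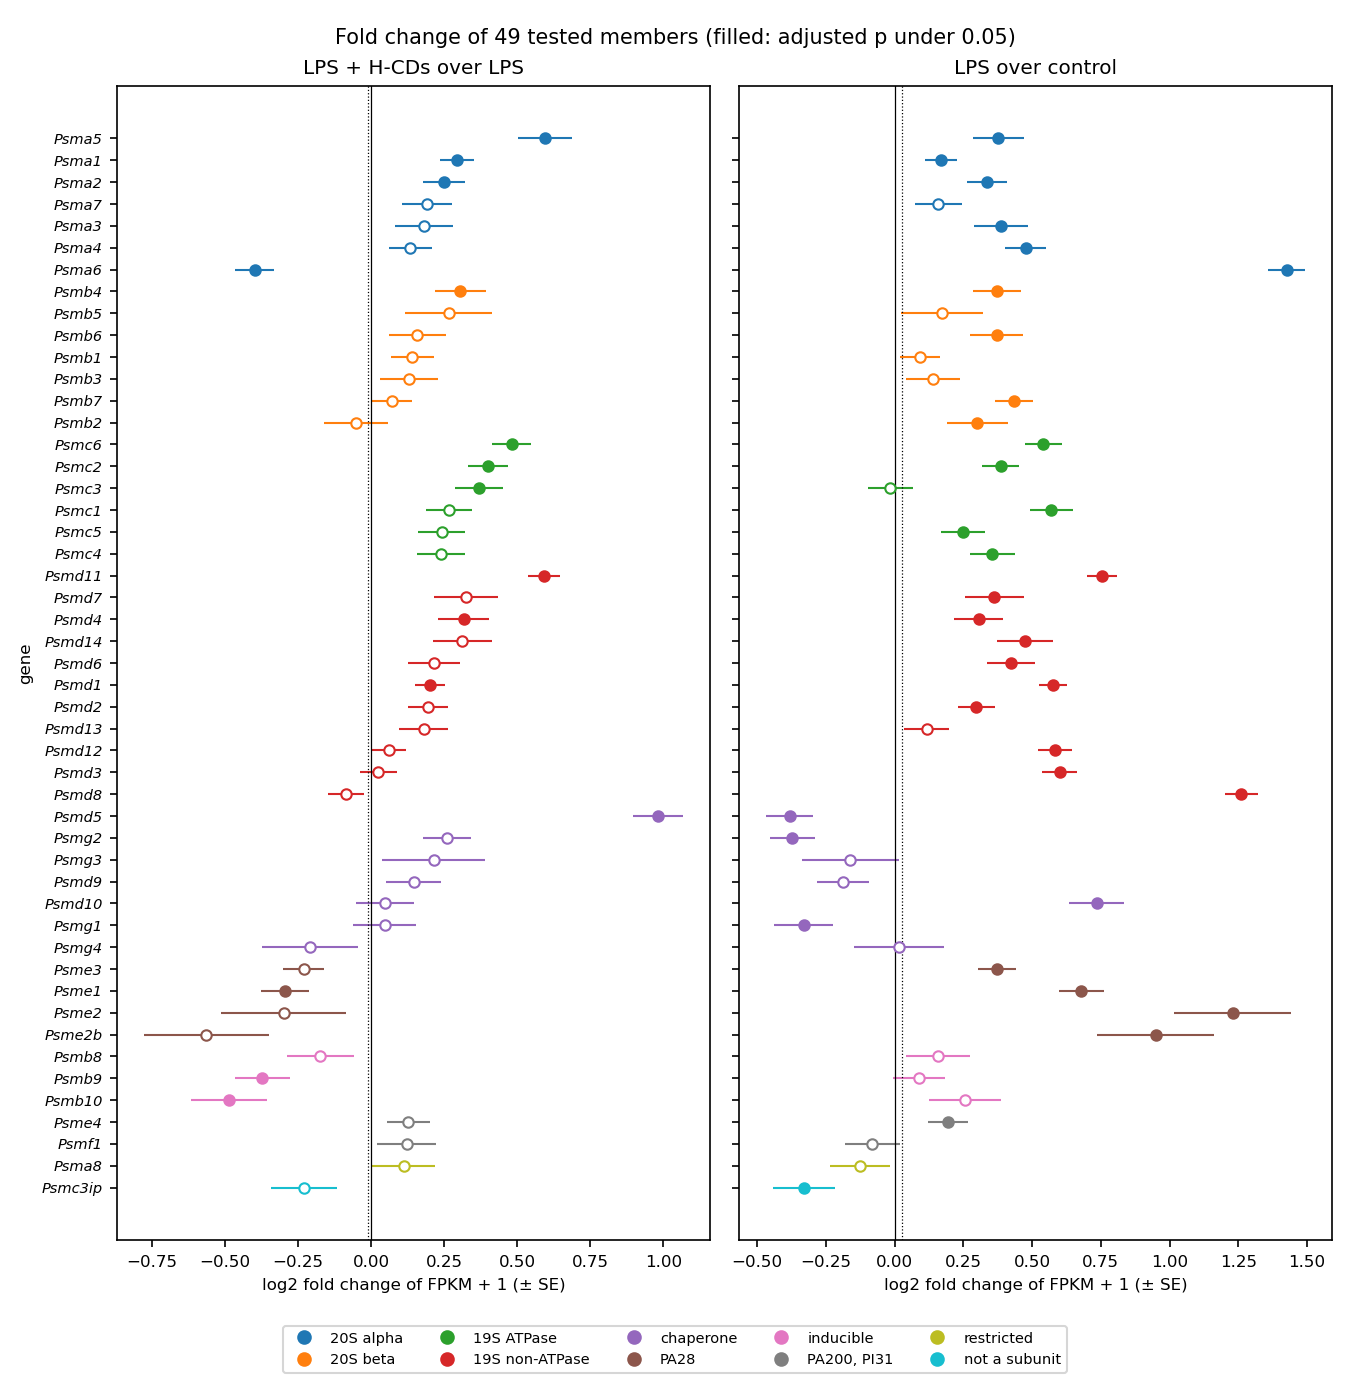
Log2 fold change of FPKM + 1 with its SE for the 49 tested genes, grouped by class, for LPS + H-CDs over LPS on the left and LPS over control on the right. Filled points have a limma adjusted p under 0.05 and the dotted line is the median of all tested genes, which lies at -0.01 on the left and 0.03 on the right as deposited; on the right the dotted line falls to -0.30 with TPM and -0.22 with total reads, and small positive values turn negative there. On the left the PA28 and inducible genes lie below the line and most 20S and 19S genes above it, with Psmd5 the highest at 0.98.

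Alpha ring subunits moved in both directions in LPS + H-CDs relative to LPS. Psma5 had 350.2, 296 and 279 FPKM in LPS + H-CDs, 192, 199.9 and 217 FPKM in LPS and 149, 157 and 162 FPKM in control. None of its groups overlapped. Psma5 rose 1.52-fold in LPS + H-CDs over LPS (log2 fold change 0.60 ± 0.09 SE, limma adjusted p = 0.00282) and 1.30-fold in LPS over control (limma adjusted p = 0.00665). Psma6 had 295, 268 and 265 FPKM in LPS + H-CDs, 367, 355 and 370.1 FPKM in LPS and 128, 137 and 139.7 FPKM in control. Its groups were also fully apart, but in another order, with LPS highest and control lowest. Psma6 fell to 0.759 of its LPS level in LPS + H-CDs (log2 fold change -0.40 ± 0.07, limma adjusted p = 0.00435), and it rose 2.70-fold in LPS over control (1.43 ± 0.07, limma adjusted p = 1.4e-07), the largest rise among the 49 genes. Psma6 lies on chr12:55384222-55418454 (plus strand), and the next protein-coding gene downstream, 70955 bases away on the opposite strand, is Nfkbia, which encodes the NF-κB inhibitor IκBα.

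Psma1 had 83.3, 86.1 and 76.8 FPKM in LPS + H-CDs, 66.2, 66.2 and 67.7 FPKM in LPS and 58.6, 57.9 and 61.1 FPKM in control, again with no overlap. It rose 1.23-fold in LPS + H-CDs over LPS (limma adjusted p = 0.0103) and 1.13-fold in LPS over control as deposited (limma adjusted p = 0.0354), a call that turned round with TPM, where Psma1 was called lower in LPS, and was lost with a value under 0 with total reads. Psma7 had 82.6, 78.5 and 71.1 FPKM in LPS + H-CDs, 63.3, 67.6 and 71.8 FPKM in LPS and 54.5, 63.3 and 63.7 FPKM in control. Each group of Psma7 overlapped the next, and it passed the test in neither step (limma adjusted p = 0.167 for LPS + H-CDs over LPS and 0.148 for LPS over control), although LPS + H-CDs and control did not overlap (1.28-fold, limma adjusted p = 0.00737). Of the other 3 alpha subunits, Psma2 rose 1.19-fold in LPS + H-CDs over LPS (limma adjusted p = 0.0484, a call that held in 5 of 13 alternative settings), while Psma3 and Psma4 had 1.15-fold and 1.10-fold values that did not pass.

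In the constitutive beta ring only Psmb4 passed the test in LPS + H-CDs over LPS. Psmb4 had 265, 229 and 220.2 FPKM in LPS + H-CDs, 183, 189.7 and 204 FPKM in LPS and 138, 151 and 156 FPKM in control, with no overlap between groups. Its rise over LPS was 1.24-fold (log2 fold change 0.31 ± 0.09, limma adjusted p = 0.0439); the call held in 5 of 13 alternative settings and was lost without replicate 1 of LPS + H-CDs. Psmb1, which had 32.4, 37.2 and 33.8 FPKM in LPS + H-CDs, 30.2, 31.3 and 31.9 FPKM in LPS and 27.7, 28.2 and 31.6 FPKM in control, was above LPS in every LPS + H-CDs library but did not pass (limma adjusted p = 0.226). Psmb2 had 87.1, 114 and 109 FPKM in LPS + H-CDs, 102, 102 and 116 FPKM in LPS and 83.5, 80.9 and 94.9 FPKM in control. It was the lowest of the class in LPS + H-CDs over LPS (0.970-fold, limma adjusted p = 0.805) and the only one of the 31 standard subunits not called higher in LPS + H-CDs over control (1.20-fold, limma adjusted p = 0.0873). When replicate 1 of LPS + H-CDs was left out, Psmb2 was called higher over control and Psmb5 was not. Psmb3 passed neither step.

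The 3 constitutive catalytic subunits did not move past the test in LPS + H-CDs over LPS. Psmb5 had 87.2, 72.4 and 62.5 FPKM in LPS + H-CDs, 49.9, 65.0 and 69.3 FPKM in LPS and 48.9, 59.7 and 53.6 FPKM in control, so its groups overlapped at each step (1.21-fold over LPS, limma adjusted p = 0.267). Psmb6 had 90.1, 99.1 and 92.1 FPKM in LPS + H-CDs, 73.5, 85.4 and 93.8 FPKM in LPS and 59.1, 69.3 and 65.7 FPKM in control. Its LPS + H-CDs and LPS groups overlapped (1.11-fold, limma adjusted p = 0.308), and both lay above control (1.30-fold in LPS, limma adjusted p = 0.00929). Psmb7 had 34.8, 36.2 and 36.7 FPKM in LPS + H-CDs, 33.6, 33.6 and 35.2 FPKM in LPS and 23.2, 24.2 and 27.7 FPKM in control. It was 1.05-fold in LPS + H-CDs over LPS (limma adjusted p = 0.548) and rose 1.36-fold in LPS over control (limma adjusted p = 0.00058).

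Of the 3 inducible catalytic subunits, Psmb9 and Psmb10 fell in LPS + H-CDs relative to LPS. Psmb10 (chr8:105935735-105938444, minus strand) had 26.1, 20.5 and 19.7 FPKM in LPS + H-CDs, 28.3, 33.5 and 31.8 FPKM in LPS and 22.1, 29.6 and 26.5 FPKM in control. It fell to 0.709 of its LPS level in LPS + H-CDs (log2 fold change -0.49 ± 0.13, limma adjusted p = 0.0356), with no overlap between these groups. Psmb9 (chr17:34181988-34187764, minus strand) had 3.15, 3.17 and 3.17 FPKM in LPS + H-CDs, 4.18, 4.73 and 4.27 FPKM in LPS and 3.56, 4.82 and 3.90 FPKM in control, from 168 to 318 reads per library. It fell to 0.720 of its LPS level (-0.37 ± 0.09, limma adjusted p = 0.0275) and to 0.773 of its control level (limma adjusted p = 0.0299), and all LPS + H-CDs libraries lay below all others. Psmb8 (chr17:34197721-34201454, plus strand) had 24.6, 20.9 and 18.6 FPKM in LPS + H-CDs, 21.8, 24.0 and 26.8 FPKM in LPS and 19.1, 22.7 and 22.9 FPKM in control. These groups overlapped, and Psmb8 passed no test (0.885-fold in LPS + H-CDs over LPS, limma adjusted p = 0.357).

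The calls of Psmb9 and Psmb10 were near the threshold, and each held in 5 of 13 alternative settings. Without replicate 1 of LPS + H-CDs the log2 fold change over LPS was -0.61 for Psmb10, -0.37 for Psmb9 and -0.27 for Psmb8, and the call of Psmb9 was lost. LPS over control did not pass for these 3 genes: the log2 fold changes were 0.26 ± 0.13 for Psmb10 (adjusted p = 0.124), 0.16 ± 0.12 for Psmb8 (adjusted p = 0.283) and 0.09 ± 0.09 for Psmb9 (adjusted p = 0.459), and all 3 turned negative with TPM and with total reads. Psmb9 overlaps the start of Tap1, a peptide transporter gene on the opposite strand that rose 3.89-fold in LPS over control, and strand-aware counting is not stated, so reads of Psmb9 and Tap1 in that overlap cannot be told apart.

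**Figure D3:**
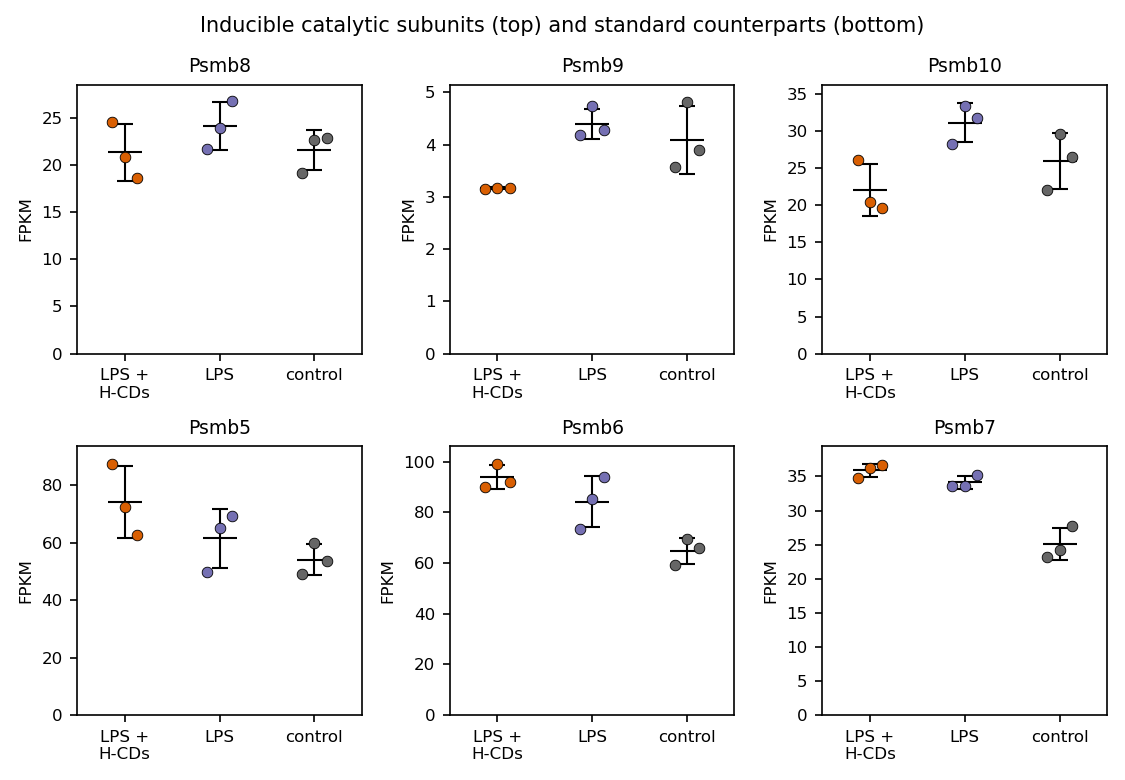
FPKM of the inducible subunits Psmb8, Psmb9 and Psmb10 (top row) and of their constitutive counterparts Psmb5, Psmb6 and Psmb7 (bottom row) in each library. Points are libraries and bars with whiskers are the mean ± SD of 3 libraries. Psmb9 and Psmb10 are lower in LPS + H-CDs than in LPS without overlap, and Psmb6 and Psmb7 in LPS + H-CDs and in LPS are above control without overlap.

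Ratios of an inducible subunit to its counterpart within a library do not depend on scaling between libraries. Psmb8 to Psmb5 was 0.283, 0.289 and 0.298 in LPS + H-CDs, 0.436, 0.369 and 0.386 in LPS and 0.391, 0.380 and 0.428 in control. Psmb9 to Psmb6 was 0.0349, 0.0320 and 0.0344 in LPS + H-CDs, 0.0568, 0.0554 and 0.0456 in LPS and 0.0604, 0.0695 and 0.0593 in control. Psmb10 to Psmb7 was 0.751, 0.566 and 0.537 in LPS + H-CDs, 0.842, 0.996 and 0.905 in LPS and 0.950, 1.22 and 0.958 in control. For all 3 pairs every LPS + H-CDs library lay below every LPS and every control library. The ratio in LPS + H-CDs was 0.732 of that in LPS for Psmb8 to Psmb5 (log2 difference -0.45 ± 0.08 SE), 0.645 for Psmb9 to Psmb6 (-0.63 ± 0.11) and 0.670 for Psmb10 to Psmb7 (-0.58 ± 0.17), each with a 2-sided exact permutation p of 0.1, the smallest that 3 against 3 libraries allow. Between LPS and control the log2 differences were -0.01 ± 0.09 (exact permutation p = 0.9), -0.27 ± 0.12 (p = 0.1) and -0.18 ± 0.14 (p = 0.3) for the same pairs. Against control, the LPS + H-CDs ratios differed by -0.46, -0.90 and -0.76 on the log2 scale, each with an exact permutation p of 0.1. These are 9 tests over 3 pairs of genes, and none can pass 0.05 at this number of libraries.

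**Figure D4:**
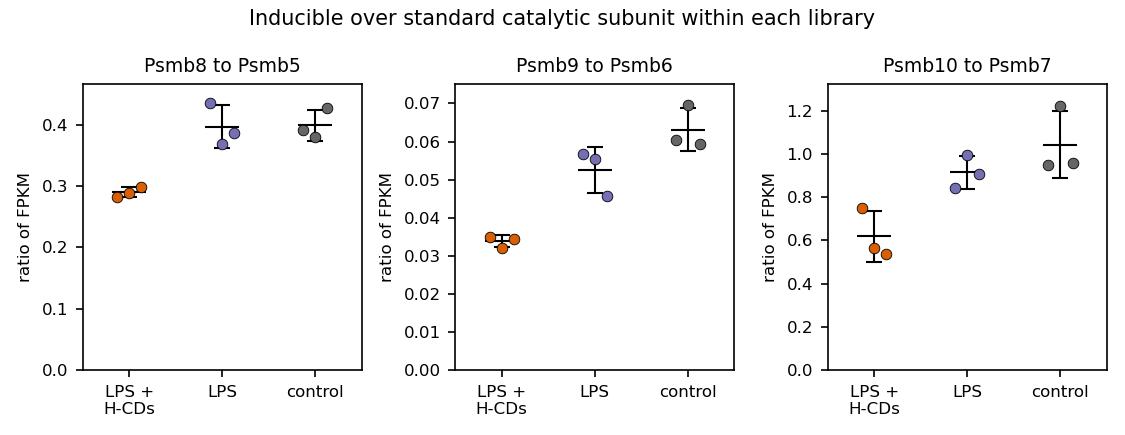
Ratio of FPKM of each inducible catalytic subunit to its constitutive counterpart in each library (Psmb8 to Psmb5, Psmb9 to Psmb6, Psmb10 to Psmb7). Points are libraries and bars with whiskers are the mean ± SD of 3 libraries. In all 3 panels the LPS + H-CDs libraries lie below those of LPS and control.

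The ATPases of the 19S particle all had positive values in LPS + H-CDs over LPS, and none of the 6 overlapped between these groups. Psmc6 had 67.0, 64.2 and 60.5 FPKM in LPS + H-CDs, 46.3, 43.1 and 46.9 FPKM in LPS and 30.5, 29.4 and 32.9 FPKM in control. It rose 1.41-fold in LPS + H-CDs over LPS (log2 fold change 0.48 ± 0.07, limma adjusted p = 0.00162) and 1.47-fold in LPS over control (limma adjusted p = 0.000105). Psmc2 had 53.4, 51.6 and 47.8 FPKM in LPS + H-CDs, 37.1, 38.4 and 39.4 FPKM in LPS and 27.0, 29.8 and 30.6 FPKM in control. It rose 1.33-fold (limma adjusted p = 0.00439) and 1.32-fold (limma adjusted p = 0.000988) in the same 2 comparisons. Psmc3 had 101, 85.8 and 86.2 FPKM in LPS + H-CDs, 66.7, 68.7 and 75.1 FPKM in LPS and 67.2, 74.4 and 71.1 FPKM in control. Its LPS and control libraries overlapped (0.990-fold, limma adjusted p = 0.89), and LPS + H-CDs lay above both (1.30-fold over LPS, limma adjusted p = 0.0163). Psmc3 was the only one of the 49 genes called higher over LPS without also being called changed in LPS over control.

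Psmc1 and Psmc4 did not pass in LPS + H-CDs over LPS. Psmc1 had 177, 182 and 169 FPKM in LPS + H-CDs, 136, 143 and 159.6 FPKM in LPS and 93.7, 94.9 and 106 FPKM in control, with no overlap (1.20-fold over LPS, limma adjusted p = 0.0505). Its LPS over control value, 1.49-fold, was the highest of the ATPases (limma adjusted p = 0.000217). Psmc4 had 109.9, 97.2 and 91.3 FPKM in LPS + H-CDs, 80.3, 83.7 and 87.8 FPKM in LPS and 60.7, 67.5 and 68.2 FPKM in control (1.19-fold over LPS, limma adjusted p = 0.0822). Psmc5 was 1.18-fold over LPS and also did not pass. All 6 ATPases were called higher over LPS with edgeR, with TPM and with total reads, and 3 were without replicate 1 of LPS + H-CDs.

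Of the 11 other 19S subunits, 10 rose in LPS over control as deposited (5 with TPM and with total reads) and 3 rose in LPS + H-CDs over LPS (6 with edgeR and with total reads, 5 with TPM, 1 without replicate 1 of LPS + H-CDs). Psmd11, a scaffold subunit of the lid, had 67.2, 67.1 and 64.1 FPKM in LPS + H-CDs, 43.9, 43.5 and 43.2 FPKM in LPS and 24.3, 25.5 and 26.5 FPKM in control. These were steps with little spread: 1.52-fold in LPS + H-CDs over LPS (log2 fold change 0.59 ± 0.05, limma adjusted p = 0.000161), 1.71-fold in LPS over control (0.75 ± 0.05, limma adjusted p = 2.7e-06) and 2.60-fold in LPS + H-CDs over control (1.35 ± 0.05, limma adjusted p = 5.52e-08). Psmd8, also of the lid, had 123, 132 and 129.7 FPKM in LPS + H-CDs, 134, 135 and 138 FPKM in LPS and 52.7, 58.0 and 57.7 FPKM in control. It rose 2.42-fold in LPS over control (1.26 ± 0.06, limma adjusted p = 1.52e-07), and LPS + H-CDs was 0.943 of LPS (limma adjusted p = 0.384). Psmd7 had 133, 109 and 106 FPKM in LPS + H-CDs, 80.9, 93.8 and 102 FPKM in LPS and 67.5, 75.7 and 70.6 FPKM in control. It had no overlap between groups, and its 1.26-fold value over LPS did not pass (limma adjusted p = 0.0767).

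Psmd13 was the 19S lid subunit that did not pass in LPS over control, with 47.9, 43.3 and 40.4 FPKM in LPS + H-CDs, 36.7, 36.9 and 42.2 FPKM in LPS and 33.4, 36.4 and 36.7 FPKM in control (1.09-fold, limma adjusted p = 0.265). The ubiquitin receptor Psmd4 rose 1.25-fold in LPS + H-CDs over LPS (limma adjusted p = 0.0412) and the base scaffold Psmd1 1.15-fold (limma adjusted p = 0.0304); both calls were lost without replicate 1 of LPS + H-CDs. The deubiquitinase of the lid, Psmd14, averaged 78.0 ± 11.7 FPKM in LPS + H-CDs, 62.2 ± 2.37 FPKM in LPS and 44.5 ± 2.57 FPKM in control, and its 1.25-fold value over LPS did not pass (limma adjusted p = 0.0702). Psmd12 and Psmd3 had 1.04-fold and 1.02-fold values over LPS in LPS + H-CDs that did not pass (limma adjusted p = 0.557 and 0.831), beside rises of 1.51-fold and 1.53-fold in LPS over control. The scaffold Psmd2 and the lid subunit Psmd6 rose 1.23-fold and 1.35-fold in LPS over control and did not pass over LPS.

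**Figure D5:**
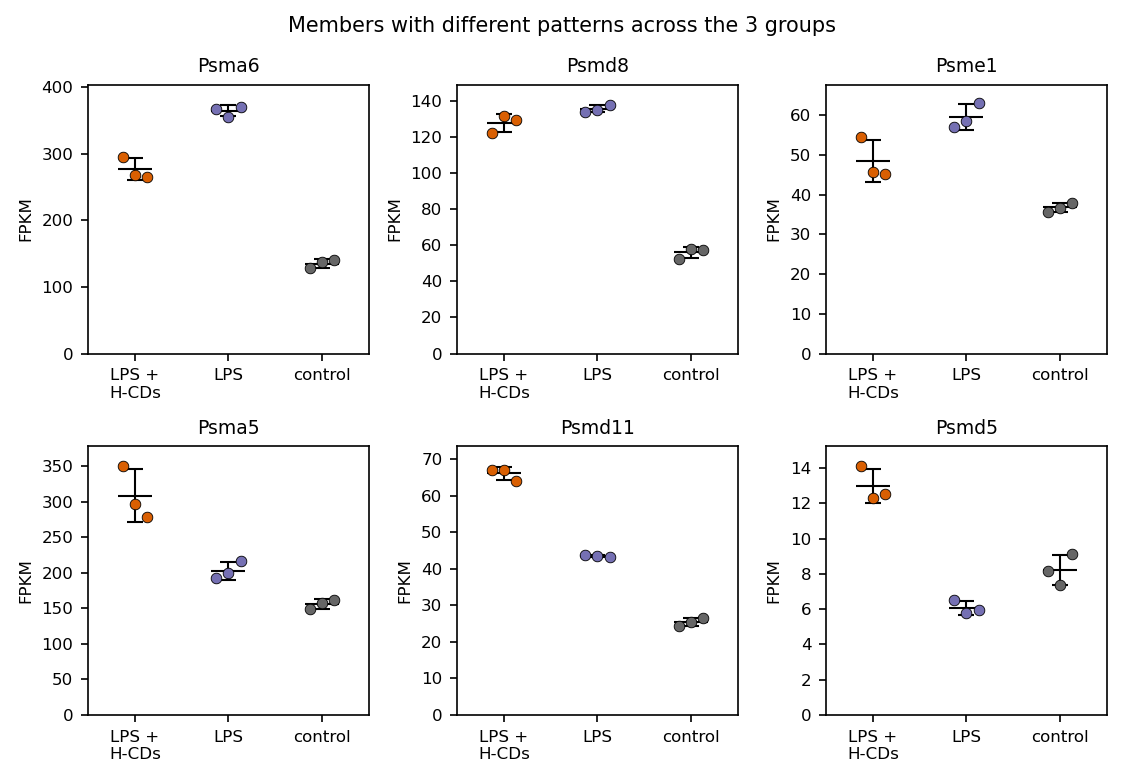
FPKM in each library of Psma6, Psmd8 and Psme1, highest in LPS, and of Psma5, Psmd11 and Psmd5, highest in LPS + H-CDs. Points are libraries and bars with whiskers are the mean ± SD of 3 libraries. Psmd5 is lowest in LPS, whereas the other 5 are lowest in control.

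Of the 7 assembly chaperones, 1 rose in LPS + H-CDs over LPS, and 1 rose and 3 fell in LPS over control as deposited (1 and 5 with TPM, 1 and 4 with total reads). Psmd5 (chr2:34849734-34874968, minus strand), which binds the ATPase base while it is being built and is known to hold back 26S assembly when in excess, had 14.1, 12.3 and 12.5 FPKM in LPS + H-CDs, 6.52, 5.76 and 5.94 FPKM in LPS and 8.19, 7.40 and 9.12 FPKM in control. Its 3 groups were fully apart. Psmd5 rose 2.14-fold in LPS + H-CDs over LPS (log2 fold change 0.98 ± 0.09, limma adjusted p = 0.000125), the largest rise among the 49 genes in that comparison. In LPS it fell to 0.738 of its control level (-0.38 ± 0.09, limma adjusted p = 0.00417), and in LPS + H-CDs it was 1.58-fold above control (limma adjusted p = 0.000296). It was the only one of the 49 genes called lower in LPS over control and higher in LPS + H-CDs over LPS.

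Psmg2, which pairs with Psmg1 to build the alpha ring, had 23.7, 20.7 and 20.9 FPKM in LPS + H-CDs, 18.3, 16.9 and 18.8 FPKM in LPS and 24.2, 21.4 and 25.2 FPKM in control. It fell to 0.762 of control in LPS (limma adjusted p = 0.00362) and was 1.21-fold in LPS + H-CDs over LPS (limma adjusted p = 0.0618). Psmg1 fell to 0.798 of control in LPS (limma adjusted p = 0.0265) and averaged 32.3 ± 0.291 FPKM in LPS + H-CDs, 31.5 ± 5.46 FPKM in LPS and 39.5 ± 0.981 FPKM in control. Psmd10, another chaperone of the base (gankyrin), had 45.8, 39.5 and 34.8 FPKM in LPS + H-CDs, 37.0, 38.8 and 39.5 FPKM in LPS and 22.1, 21.2 and 25.0 FPKM in control. It was the only chaperone that rose in LPS over control (1.69-fold, limma adjusted p = 0.000195), and its LPS + H-CDs and LPS libraries overlapped. Psmg4, with 24.4, 36.1 and 30.4 FPKM in LPS + H-CDs, 29.3, 36.4 and 39.3 FPKM in LPS and 29.1, 39.5 and 35.1 FPKM in control, overlapped throughout and passed no test, and neither did Psmd9 and Psmg3.

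All 4 PA28 genes rose in LPS over control as deposited (3 of 4 with TPM and with total reads), and all 4 had values under 0 in LPS + H-CDs over LPS, of which 1 passed. Psme1 (chr14:55578123-55581529, plus strand), the alpha subunit of PA28, had 54.6, 45.6 and 45.2 FPKM in LPS + H-CDs, 56.9, 58.4 and 63.1 FPKM in LPS and 35.6, 36.7 and 38.0 FPKM in control. It rose 1.62-fold in LPS over control (log2 fold change 0.68 ± 0.08, limma adjusted p = 8.52e-05) and fell to 0.815 of LPS in LPS + H-CDs (-0.29 ± 0.08, limma adjusted p = 0.0398), with no overlap in either case. That fall was near the threshold, held in 3 of 13 alternative settings, and was lost with TPM and with total reads. Psme3, the nuclear gamma subunit, had 92.4, 105 and 104 FPKM in LPS + H-CDs, 117, 116 and 121 FPKM in LPS and 93.6, 86.0 and 93.2 FPKM in control. It rose 1.30-fold in LPS over control (limma adjusted p = 0.00132), and its value of 0.852 of LPS in LPS + H-CDs did not pass (limma adjusted p = 0.0514), although these groups did not overlap.

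Psme2, the beta subunit, had 49.1, 27.6 and 39.8 FPKM in LPS + H-CDs, 40.3, 43.2 and 58.6 FPKM in LPS and 22.2, 16.1 and 20.2 FPKM in control. Its near copy Psme2b had 46.7, 63.2 and 33.8 FPKM in LPS + H-CDs, 63.4, 78.7 and 66.1 FPKM in LPS and 28.4, 41.2 and 37.5 FPKM in control. The Psme2b transcript is 99.4% identical to Psme2 over 794 of its 837 bases, with 5 mismatches, so the split of reads between these genes is uncertain. Their summed FPKM was 86.8 ± 11.7 in LPS + H-CDs, 117 ± 11.4 in LPS and 55.2 ± 3.99 in control. Taken singly, Psme2 rose 2.43-fold (limma adjusted p = 0.000911) and Psme2b 1.94-fold (limma adjusted p = 0.00411) in LPS over control, and neither passed in LPS + H-CDs over LPS (limma adjusted p = 0.389 and 0.109). Relative to the median of all genes, the 4 PA28 genes lay above it in LPS over control and below it in LPS + H-CDs over LPS on every scale tried.

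Psme4, which encodes the activator PA200, had 15.9, 16.3 and 16.3 FPKM in LPS + H-CDs, 15.6, 14.8 and 13.7 FPKM in LPS and 14.1, 12.3 and 11.9 FPKM in control. It rose 1.15-fold in LPS over control on the authors' scale (limma adjusted p = 0.0483), with overlap between these groups and a negative value with TPM and with total reads, and it was 1.10-fold over LPS in LPS + H-CDs (limma adjusted p = 0.278). Psmf1, which encodes the inhibitor PI31, had 6.21, 7.02 and 8.19 FPKM in LPS + H-CDs, 6.77, 6.10 and 6.46 FPKM in LPS and 6.76, 6.23 and 7.68 FPKM in control, and passed no test. Psma8, known as a testis-restricted alpha subunit, averaged 10.2 ± 1.48 FPKM in LPS + H-CDs, 9.39 ± 1.27 FPKM in LPS and 10.3 ± 0.134 FPKM in control and passed no test. It had 191 to 310 reads per library. Whether these reads come from Psma8 transcripts was not tested. Psmc3ip, not a proteasome part, averaged 8.15 ± 1.10 FPKM in LPS + H-CDs, 9.71 ± 0.993 FPKM in LPS and 12.5 ± 1.32 FPKM in control, and it fell to 0.780 of control in LPS (limma adjusted p = 0.0328).

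Set against control, 35 of the 49 genes were higher and 2 lower in LPS + H-CDs, where 26.7% of all genes tested were higher and 25.4% lower. Of the 31 standard subunits, 30 rose, with a median log2 fold change of 0.61, and all 31 lay above the median of all genes. Over the 49 genes, 34 lay higher and 3 lower without overlap, against 29.7% and 28.0% of all genes. Of the PA28 genes, Psme1 and Psme2 rose, and of the inducible subunits Psmb9 fell while Psmb8 and Psmb10 did not pass; all 3 were called lower with TPM, and Psmb9 and Psmb10 with total reads. Without replicate 1 of LPS + H-CDs, 36 genes rose and 2 fell, but not the same ones: the rise of Psmb5 and the fall of Psmb9 were lost, and rises of Psmb2 and Psme3 and a fall of Psmb10 were gained. This comparison combines both agents and cannot separate them.

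Levels of the standard subunits differed widely per length. Mean FPKM spanned 8.94-fold in LPS + H-CDs, with Psmb1 lowest at 34.5 and Psma5 highest at 308. It spanned 12.1-fold in LPS, with Psma3 lowest at 30.2 and Psma6 highest at 364, and 6.82-fold in control, with Psma3 lowest at 22.9 and Psma5 highest at 156. The deposited length was the union of all exons for 46 of the 50 genes. It is 1.06 to 8.91 times the median coding transcript of the standard subunits. How far that order follows the annotation was not tested. With the length of the median coding transcript the spans became 12.6-fold in LPS + H-CDs, 13.1-fold in LPS and 15.1-fold in control. That length was 659 bases for Psmd2 and 716 for Psmd11, against 4038 and 6383 deposited. These wider spans therefore also depend on which transcripts are annotated as coding. Exons of 12 of the 50 genes overlap a gene on the opposite strand and 4 overlap one on the same strand.

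The authors' deposited table of LPS + H-CDs against LPS, which rests on the same reads and so is not independent, called 17 of the 49 genes higher and 6 lower at an adjusted p under 0.05, against 4.12% and 6.00% of its 21576 genes. It held all 11 higher and 4 lower calls above. In the authors' deposited table Psmd5 had a log2 fold change of 1.11 (adjusted p = 1.87e-26) and Psmd11 one of 0.62 (adjusted p = 7.37e-18). Beyond those, the authors' deposited table called Psmc1, Psmc4, Psmc5, Psmd2, Psmd7 and Psmd14 higher, with adjusted p from 0.00579 for Psmc1 to 0.0283 for Psmd2. The same authors' deposited table also called Psme2b (-0.52, adjusted p = 0.0147) and Psme3 (-0.22, adjusted p = 0.0371) lower, and it gave Psmb9 -0.46 (adjusted p = 0.0294).

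Among 50 further genes tied to the proteasome by function, listed with earlier results of these data known, 36 rose and 6 fell in LPS over control as deposited (15 and 10 with TPM, 19 and 9 with total reads), and 8 rose and 7 fell in LPS + H-CDs over LPS (9 and 4 with TPM, 11 and 3 with total reads, 8 and 4 without replicate 1 of LPS + H-CDs). Among all genes tested, 28.8% rose and 26.8% fell in the first comparison, and 6.54% and 9.05% in the second. All 8 genes of class I peptide supply rose in LPS over control as deposited (5 with TPM and 6 with total reads), and 4 of them (Nlrc5, Tap1, Tapbp and Erap1) fell in LPS + H-CDs over LPS (2 with TPM, 1 with total reads and 2 without replicate 1 of LPS + H-CDs). Nlrc5, the transactivator of class I genes, averaged 5.89 FPKM in LPS + H-CDs, 10.4 FPKM in LPS and 2.28 FPKM in control (log2 fold change over LPS -0.73, limma adjusted p = 0.000148). Tap1 averaged 17.7 ± 1.15 FPKM in LPS + H-CDs, 21.3 ± 0.442 FPKM in LPS and 5.48 ± 0.305 FPKM in control (-0.26 over LPS, limma adjusted p = 0.0262). Of 5 interferon factors, 4 rose in LPS over control as deposited, with TPM and with total reads. In LPS + H-CDs over LPS 2 of the 5 fell, Irf8 (-0.65, limma adjusted p = 6.53e-05) and Stat2 (-0.49, limma adjusted p = 0.00403). The other 3 did not pass. Irf8 and Stat2 stayed 2.76-fold and 3.19-fold above control in LPS + H-CDs. Irf1 averaged 3.42 FPKM in LPS + H-CDs, 3.52 FPKM in LPS and 3.05 FPKM in control and did not pass over LPS (limma adjusted p = 0.821).

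Of 9 regulators of proteasome genes, 5 rose and 2 fell in LPS over control as deposited (3 and 4 with TPM and with total reads), and only Mafg, a small MAF partner of Nfe2l1 and Nfe2l2, passed in LPS + H-CDs over LPS. Mafg averaged 49.4 FPKM in LPS + H-CDs, 33.5 FPKM in LPS and 27.3 FPKM in control (0.54 over LPS, limma adjusted p = 0.00378). Nfe2l1 averaged 54.3 ± 0.392 FPKM in LPS + H-CDs, 54.2 ± 0.934 FPKM in LPS and 36.6 ± 2.63 FPKM in control: it rose 1.48-fold in LPS over control (limma adjusted p = 4.92e-05) and was 1.00-fold over LPS (limma adjusted p = 0.97). Its protein is known to be regulated by processing and turnover, which these data do not measure. Maff, another small MAF, rose 6.57-fold in LPS over control (limma adjusted p = 2.16e-08).

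Of 16 ubiquitin genes and shuttle factors, 5 rose and 1 fell (Ubqln4) in LPS + H-CDs over LPS, and 11 rose and 2 fell in LPS over control as deposited (2 and 4 with TPM, 4 and 3 with total reads). The call of Ubqln4 over LPS was lost with TPM, with total reads and without replicate 1 of LPS + H-CDs. When that library was left out, 6 of the 16 rose over LPS. Sqstm1, the autophagy receptor p62, had 995, 934 and 880.5 FPKM in LPS + H-CDs, 218, 218 and 224 FPKM in LPS and 48.7, 57.0 and 55.6 FPKM in control, with no overlap. It rose 4.25-fold over LPS (log2 fold change 2.08 ± 0.08, limma adjusted p = 6.37e-07) and 4.10-fold in LPS over control (limma adjusted p = 3.17e-08). The other 4 of the 5 genes that rose over LPS with all libraries were named after their values were seen. They were Zfand5 (1.63-fold, limma adjusted p = 0.00109), the unfoldase Vcp (1.37-fold, limma adjusted p = 0.0159) and its cofactors Ufd1 (1.29-fold, limma adjusted p = 0.00579) and Nploc4 (1.18-fold, limma adjusted p = 0.0176). The 5 enzymes bound to the proteasome, Usp14 (limma adjusted p = 0.507) and Uchl5 (limma adjusted p = 0.78) among them, did not pass over LPS in limma or in edgeR, where 1 had an unadjusted p under 0.05 in limma; in LPS over control 4 of them rose and 1 fell as deposited (0 and 1 with TPM). Of 7 further subunits and maturation factors, Pithd1 (1.27-fold, limma adjusted p = 0.0312) and Txnl1 (1.23-fold, limma adjusted p = 0.02) rose over LPS, and 4 rose and 1 fell in LPS over control as deposited (1 and 1 with TPM). Without replicate 1 of LPS + H-CDs the call of Pithd1 was lost. Pomp, the maturation factor of the 20S core, averaged 23.1 FPKM in LPS + H-CDs, 23.9 FPKM in LPS and 19.4 FPKM in control, and neither it nor Adrm1 (limma adjusted p = 0.0969) nor Sem1 (limma adjusted p = 0.772) passed over LPS.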

How the data were processed

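Poly-A RNA of RAW 264.7 cells was reverse transcribed from random hexamers, per the labels' protocols, which do not mention strand. The authors deposited FPKM per gene for 9 libraries, and a table for LPS + H-CDs against LPS with a scaled signal for each library, a log2 fold change, a p-value and an adjusted p, all made by the authors, per the file headers. The build was GRCm38 (mm10), per the submitters' processing notes; the aligner, counting tool, normalization and the authors' own test were not given in the sources used here. The columns abbreviate the supplement to CD, read here as H-CDs.

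Whole reads could be recovered from the FPKM: times gene length and divided by a step fitted to each library, 100% of values were whole within a tolerance of 0.01. In the comparison table the step of LPS + H-CDs replicate 3 lay near 1. GENCODE M21 held 99.8% of the gene identifiers.

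Genes reaching 1 FPKM in 3 or more of the 9 libraries were tested for 3 comparisons with limma 3.58.1 in R 4.3.3 on log2(FPKM + 1), with an intensity trend, all 9 libraries in 1 fit (6 residual degrees of freedom), Benjamini-Hochberg adjustment and a threshold of 0.05. Ratios were tested with 2-sided exact permutation over libraries. Alternatives were a pseudocount of 0.1, no filter, rescaling to TPM or total reads, a replicate block, only the 2 groups compared, edgeR 4.0.16 on recovered reads, and each library left out. The fits were also run on simulated data, with an outcome not given here. That simulation had no shift in scaling between groups, so it cannot speak to the dependence on scaling. Python 3.11.15, pandas 2.3.3, numpy 2.4.6, scipy 1.17.1 and matplotlib 3.10.9 were also used. The members, gene lists and motifs were chosen with earlier results of these data known. Values per library are given for the catalytic subunits, activators and inhibitor, and in the other classes for the members with the highest and lowest fold changes. Sequences are RefSeq promoters. A gene of the lists is not reported here.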

Additional observations from a re-analysis of the deposited data

How the results depend on the processing

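Depth was not varied, since libraries differed little in total reads; the limits are 3 libraries per group, the scaling between libraries and 1 library of LPS + H-CDs that stood apart. Fold changes of the members and of further genes named above were recomputed under the alternatives. Of these, 1946 kept their direction and side of the threshold, 192 lost a call, 51 gained one and 60 changed sign. Over the 13 alternatives that apply to each comparison, the calls of Psma5, Psmc2, Psmc6, Psmd11 and Psmd5 (higher) and Psma6 (lower) in LPS + H-CDs over LPS were kept throughout, as were 12 of 31 higher calls in LPS over control (25 of 31 with rescaling left aside) and 27 of 35 in LPS + H-CDs over control. The ratios of inducible to constitutive subunits kept their direction, from -0.50 to -0.38 for Psmb8 to Psmb5, -0.73 to -0.53 for Psmb9 to Psmb6 and -0.73 to -0.49 for Psmb10 to Psmb7 in LPS + H-CDs over LPS on the log2 scale. The cause of the changes listed next was not tested.

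In LPS + H-CDs over LPS, the count of higher members, 11, was 17 with TPM, 18 with total reads and 17 with edgeR, and 5 to 11 with 1 library left out. The count of lower members, 4, was 1 without a filter, 1 with total reads and 1 to 3 with 1 library left out. In LPS over control, the count of higher members, 31, was 12 with TPM and 13 with total reads, and that of lower members, 4, was 2 without a filter, 13 with TPM, 9 with total reads and 2 to 4 with 1 library left out. In LPS + H-CDs over control, the lower members, 2, were 1 without a filter, 9 with TPM, 5 with total reads and 1 to 2 with 1 library left out. Over all genes tested, higher calls in LPS + H-CDs over LPS, 766, were 1195 with total reads and 446 to 669 with 1 library left out, and lower calls, 1060, were 690 with TPM, 690 with total reads and 576 to 984 with 1 library left out. In LPS over control, all genes gave 1676 higher and 5657 lower calls with TPM, and 1904 and 5191 with total reads, against 3372 and 3136. In LPS + H-CDs over control they gave 1651 and 5338 with TPM, and 2033 and 4528 with total reads, against 3120 and 2970.

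Of the calls that changed sign, Psma1 in LPS over control was called lower with TPM. In LPS over control, log2 fold changes with TPM and with total reads were -0.096 and -0.037 for Psmc5, -0.23 and -0.17 for Psmd13, -0.18 and -0.12 for Psma1, -0.19 and -0.13 for Psma7, -0.25 and -0.19 for Psmb1, -0.21 and -0.15 for Psmb3, -0.17 and -0.11 for Psmb5, -0.081 and -0.022 for Psmb10, -0.18 and -0.12 for Psmb8, -0.22 and -0.15 for Psmb9, -0.14 and -0.076 for Psme4 and -0.33 and -0.26 for Psmg4, which edgeR put at -0.022. With TPM alone they were -0.049 for Psmd2, -0.038 for Psmd4, -0.0035 for Psma2 and -0.0445 for Psmb2. In LPS + H-CDs over control they were -0.17 and -0.064 for Psme3, -0.24 and -0.13 for Psmg3 and -0.25 and -0.14 for Psmf1, and with TPM alone -0.0057 for Psmd13, -0.067 for Psmb1, -0.057 for Psmb2 and -0.035 for Psmb3. Psmb2 was 0.030 in LPS + H-CDs over LPS with total reads. With 1 library left out, LPS over control ranged from -0.065 to 0.020 for Psmc3 and -0.098 to 0.14 for Psmg4. LPS + H-CDs over LPS ranged from -0.015 to 0.052 for Psmd3, -0.12 to 0.067 for Psmb2, -0.052 to 0.14 for Psmd10 and -0.094 to 0.15 for Psmg1. LPS + H-CDs over control ranged from -0.12 to 0.19 for Psmg3, -0.12 to 0.075 for Psmb8, -0.050 to 0.13 for Psmf1 and -0.12 to 0.069 for Psma8.

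The labels number the libraries of each group 1 to 3. Same-numbered libraries of different groups deviated together with correlations of -0.121 to 0.198, and differently numbered ones with -0.166 to 0.168. With 3 libraries per group these values cannot decide whether the numbers pair the samples. With the replicate number as a block, 8 members were higher and 3 lower in LPS + H-CDs over LPS, 29 and 4 in LPS over control, and 34 and 2 in LPS + H-CDs over control; over all genes the block gave 603 and 882, 3255 and 3021, and 3005 and 2831 calls.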
